A study of Mus musculus with 15 samples.

Results

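The genes described here are 10 regulators and adhesion molecules of the epithelial-mesenchymal transition (EMT): the transcription factors Snai1, Snai2, Zeb1, Zeb2 and Twist1, the cadherins Cdh1, Cdh2, Cdh17 and Cdh11, and the splicing factor Esrp1. They were chosen by gene name, as all non-control probes that carry 1 of these symbols, which gave 14 probes of 55681 on the array and 10 genes of 22594 with a symbol. Total RNA of whole liver tumors was measured on 1-colour Agilent mouse arrays, 1 array per tumor and 5 tumors per group. The first group held hepatocellular carcinomas (HCC) of p53f/f mice, which carry floxed Trp53 alleles without the deletion. The second held HCC of p53LKO mice, in which Trp53 is deleted in the liver only, and the third held intrahepatic cholangiocarcinomas (ICC, tumors of the bile duct type) of p53LKO mice.

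All mice of the 3 groups, on a C57/BL6J background (as the study writes it) and, for the HCC, male by the study's legend, had received 16 weeks of the hepatotoxin carbon tetrachloride (CCl4) at 0.5 µl per g body weight, by the labels 1 injection every 3 days (the study's methods give another schedule), so no untreated liver serves as a baseline. The age of each arrayed mouse and the promoter that drives the liver-specific deletion are not given in the sources used here. Tumors arose later in p53f/f than in p53LKO mice by the study's account, so age at sampling may differ between the genotypes and cannot be told apart from them. The 5 p53f/f HCC came from 4 mice, since mouse 3717 gave 2 tumors, and the HCC and the ICC of mice 3731, 3733, 3976 and 5283 came from the same animals. The difference between p53LKO HCC and p53f/f HCC addresses the liver genotype within 1 tumor type, and that between ICC and p53LKO HCC addresses the tumor type within 1 genotype. ICC was set against p53f/f HCC only to order the groups.

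In EMT, epithelial cells give up cell-cell junctions and take on mesenchymal features. Snai1, Snai2, Zeb1, Zeb2 and Twist1 encode DNA-binding proteins that promote it, and the SNAI and ZEB proteins repress Cdh1 through E-boxes. Cadherins are calcium-dependent adhesion molecules: Cdh1 (E-cadherin) joins epithelial cells, Cdh2 (N-cadherin) is found on neural and mesenchymal cells and, together with Cdh1, on normal hepatocytes, Cdh11 (OB-cadherin) is typical of fibroblasts and osteoblasts, and Cdh17 (LI-cadherin) of intestinal epithelium. Esrp1 keeps epithelial splice forms of many transcripts.

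Since SNAI and ZEB proteins bind E-boxes, the promoter windows of the 10 genes in the RefSeq table were searched for CACCTG, or CAGGTG on the other strand. Windows of 300 bases were listed for 3 of the 10 genes, Snai1, Zeb2 and Twist1, and 20.2% of all 32851 windows in the table held the motif. It occurred 1 time in the Snai1 window and 0 times in the Zeb2 and Twist1 windows, which says only that these letters are not in those windows. The 250 bases before the Snai1 start are shown because Snai1, of the EMT transcription factors among the 10 genes, has the largest difference between the tumor groups below. They lie at chr2:167537945-167538194 of GRCm38.p6 on the plus strand (RefSeq), with the E-box in capitals at 167538069 to 167538074, beginning 126 bases before the gene start. The match is a description of the letters and not of binding.
Snai1 promoter: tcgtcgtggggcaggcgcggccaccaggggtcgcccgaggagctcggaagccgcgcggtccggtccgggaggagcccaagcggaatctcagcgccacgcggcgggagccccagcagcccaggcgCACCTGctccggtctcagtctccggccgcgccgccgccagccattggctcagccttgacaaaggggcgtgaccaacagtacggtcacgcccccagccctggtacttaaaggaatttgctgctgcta

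The level of a gene here is the signal of 1 probe of 60 bases at 1 place of the transcript, which matters for Zeb2 and Cdh11, whose 2 probes differed. The first 30 bases of the probes that carry the main results are given 5′ to 3′ as listed in the array files, with the position of the whole probe in mm9. The Snai1 probe lies at chr2:167368073-167368132 (plus strand), and the Cdh17 probe at chr4:11744272-11744331 (plus strand). The brighter Zeb2 probe lies at chr2:44842774-44842833 (minus strand) and the dimmer 2736 bases further along the transcript. One Cdh11 probe lies at chr8:105157473-105157532 (minus strand), while the other is placed on a stretch of chromosome 8 that was not positioned in that build (8_random). The array files do not say in which exon or untranslated region a probe lies.
Snai1: gtttcacagcagtttaactgtctcagaagg
Zeb2, brighter probe: ctgtattttcgactgaaaattccactttct
Zeb2, dimmer probe: tacgtgggggaaaatatatgtgaaagcaat
Cdh1: acattctaacgggaaaaaggagacaagacc
Cdh17: cagctgtttaatttcatccaaaatgtgaac
Cdh11, chromosome 8 probe: tattttagtatacatacaaatatcagtatt
Cdh11, 8_random probe: atagaactgtttgaaatcacaacagactga

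Levels are log2 signals relative to the 75th percentile of the probes of the array, so 0 is the level of that percentile and a difference of 1 is 2-fold. A gene was tested if its probe was well above background, by the scanner software's own call, on at least 3 arrays of 1 of the groups compared, and it was called at an adjusted p under 0.05 (limma, Benjamini-Hochberg over all probes tested) with a fold change over 2. Before any gene is compared, 3 properties of the arrays matter. Well above background were 55.1% to 70.1% of the probes on the p53f/f HCC arrays, 37.0% to 62.1% on the p53LKO HCC arrays and 42.5% to 47.0% on the ICC arrays. All p53f/f HCC lay in the upper row of their slide and all ICC in the lower row, so row and group cannot be told apart between them, while 2 p53LKO HCC, of mice 3976 and 5283, lay in the lower row and 3 in the upper row. The shares above background went with the row, since the p53LKO HCC had 61.0% to 62.1% in the upper row, but 46.4% and 37.0% in the lower. The call was thus met less often in the row that held all ICC, which bears on the filter and on counts of arrays above background. Trp53 was lower in p53LKO HCC than in p53f/f HCC by -2.08 ± 0.24 (SE, adjusted p = 0.0002) with no overlap, although its probe is placed on chromosome 17, away from the Trp53 gene, and it is not known whether it lies in the deleted part.

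The cell types of the tumors set the frame for the adhesion genes. Of 8 hepatocyte markers, 5 fell in ICC against p53LKO HCC (Alb, Apoa1, Ttr, Hnf4a and Asgr1, by -1.73 to -2.76), and the mean level of the list was 6.45 to 7.04 in p53LKO HCC and 3.60 to 5.97 in ICC. Of 8 cholangiocyte markers, 7 were tested and 4 rose (Epcam, Spp1, Krt19 and Krt7), with list means of -3.10 to -1.47 in p53LKO HCC, -2.66 to -0.24 in p53f/f HCC and 0.38 to 0.67 in ICC. The ICC label thus had its bile duct keratins, while Alb remained at a mean level of 7.85 in ICC. Of 8 markers of stellate cells and fibroblasts, 4 rose in ICC against p53LKO HCC (Col1a1, Lum, Dcn and Pdgfrb, by 1.25 to 2.63) and the other 4 lay between -1.22 (Lrat) and 0.78, with list means of -0.58 to 0.90 in p53f/f HCC, 0.34 to 1.85 in p53LKO HCC and 1.48 to 2.72 in ICC. In whole tumor tissue fewer cells of a type and less RNA per cell cannot be told apart, and the part of these cell types in the results below was not tested.

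**Figure D1:**
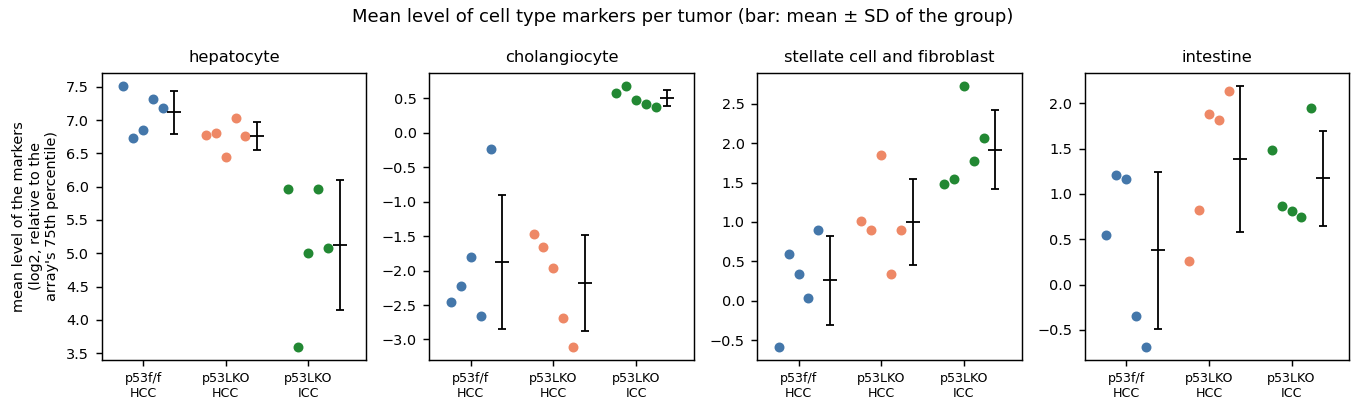
Mean level of the markers of 4 cell types in each tumor (log2 scale, with the 75th percentile of each array at 0), by group, with the mean and SD of the group in black. ICC lies below all HCC for the hepatocyte markers and above all HCC for the cholangiocyte markers, while for the stellate cell and fibroblast markers 1 p53LKO HCC, at 1.85, lies among the ICC, and the intestine markers overlap.

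Of the EMT transcription factors, Snai1 rose in ICC against p53LKO HCC, Zeb2 was higher by just under 2-fold, and Snai2 and Zeb1 did not pass the test. Snai1 levels were -1.82, -2.37, -1.83, -1.76 and -1.57 in p53f/f HCC. In p53LKO HCC they were -1.61, -1.08, 0.14, -1.61 and -0.55. In ICC they were 0.31, 0.97, 1.75, 0.50 and 1.70, all above every HCC.

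Snai1 was therefore higher in ICC than in p53LKO HCC by 1.99 ± 0.40 (SE, 3.97-fold, adjusted p = 0.0029, n = 5 arrays per group). The exact 2-sided permutation test over the arrays gave p = 0.00794, the smallest it allows with 5 against 5. Within the lower row alone, with 2 HCC and 5 ICC, the difference was 2.39 (adjusted p = 0.013), on slide 2 alone it was 1.90 (adjusted p = 0.021), and on slide 1, with 1 ICC array and so without a spread of its own, it was 1.65. Between the 2 HCC groups the difference was 0.93 (95% interval 0.20 to 1.66, adjusted p = 0.052), and 3 of 5 p53LKO HCC lay above all p53f/f HCC. That genotype difference was called in 6 of 26 alternative settings, with the row as a block (1.20, adjusted p = 0.035), in the upper row alone, with quantile normalization (1.20, adjusted p = 0.018), with spike-in scaling (1.66, adjusted p = 0.0039) and without the HCC of mouse 3976 or of mouse 3733 (1.09 for both). It was 0.56 (adjusted p = 0.068) after normexp correction, 0.60 (adjusted p = 0.26) on slide 1 alone, 0.71 (adjusted p = 0.15) with the slide as a block and 0.68 (adjusted p = 0.16) with scaling to bright probes. The order of the groups was p53f/f HCC, p53LKO HCC, ICC, of which the first pair did not differ by the call and the outer groups differed by 2.92 ± 0.31 (SE, adjusted p = 0.0001).

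Zeb2 had levels of -1.13, -0.17, -0.12, -0.05 and -0.05 in p53f/f HCC by its brighter probe. In p53LKO HCC they were -0.28, 0.12, 0.48, -0.40 and -0.33. All 5 ICC lay above every HCC, at 0.79, 1.23, 1.09, 0.74 and 0.72.

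The Zeb2 difference between ICC and p53LKO HCC was 1.00 ± 0.21 (SE, adjusted p = 0.0033), a 1.997-fold difference that stopped just short of the 2-fold limit, and it was not called. With the mouse as a block it was 0.98 (adjusted p = 0.052). It was called in 10 of 26 alternative settings, among them scaling to bright probes (1.37, adjusted p = 0.0011) and leaving out the HCC of mouse 3731 (1.14, adjusted p = 0.0014), which had the highest Zeb2 of all HCC. Against p53f/f HCC, Zeb2 was called in ICC with 1.22 ± 0.24 (SE, adjusted p = 0.0034). The dimmer probe, well above background on 9 of 15 arrays, gave 0.85 ± 0.33 (SE, adjusted p = 0.055) against p53LKO HCC and 0.64 (adjusted p = 0.22) against p53f/f HCC, with overlap in both. The 2 HCC groups differed in Zeb2 by 0.22 (95% interval -0.35 to 0.79).

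Snai2 encodes the close relative of Snai1 also called Slug. Its levels were 0.51, 0.66, 0.20, -0.06 and 0.31 in p53f/f HCC, and -0.49, 0.38, 0.26, 0.32 and 0.06 in p53LKO HCC. ICC had -0.27, -0.39, -0.04, -0.07 and 0.49. The groups overlapped, and the intervals of the differences were -0.69 to 0.24 for genotype and -0.65 to 0.33 for tumor type, which hold no 2-fold change. The order of the means was the reverse of that of Snai1, with p53f/f HCC highest (0.33 ± 0.28, SD, n = 5) and ICC lowest (-0.06 ± 0.34, SD, n = 5), and neither neighbours nor ends differed by the test (adjusted p = 0.18 for the ends).

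Zeb1 was not called in any of the 3 comparisons. Its levels ran from 0.15 to 0.82 in p53f/f HCC (median 0.35), from 0.54 to 0.93 in p53LKO HCC (median 0.57) and from 0.43 to 1.32 in ICC (median 0.89). The intervals of the differences were -0.14 to 0.62 for genotype and -0.21 to 0.61 for tumor type, and the adjusted p values were 0.30 and 0.40. The difference between ICC and p53f/f HCC was 0.44 (95% interval -0.00 to 0.89, adjusted p = 0.11), and the exact 2-sided permutation test gave p = 0.0476. With scaling to bright probes the tumor type difference was 0.57 (adjusted p = 0.022), under 2-fold, and with spike-in scaling that between ICC and p53f/f HCC was 1.19 (adjusted p = 0.017), which was called.

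Twist1 was not measurable in most tumors. Its probe was well above background on 0 p53f/f HCC, 2 p53LKO HCC (mice 3731 and 3975) and 0 ICC arrays, and it entered no test. Those 2 arrays lay in the upper row, and the ICC signal of -3.19 in the lower row was higher than both without meeting the call. The signals were -6.54 to -4.89 in p53f/f HCC, -4.98 to -3.70 in p53LKO HCC and -5.07 to -3.19 in ICC, and no fold is given. Without the filter on dim probes it would have been called higher in p53LKO HCC (adjusted p = 0.029) and in ICC (adjusted p = 0.024) than in p53f/f HCC, calls that compare signals near background.

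**Figure D2:**
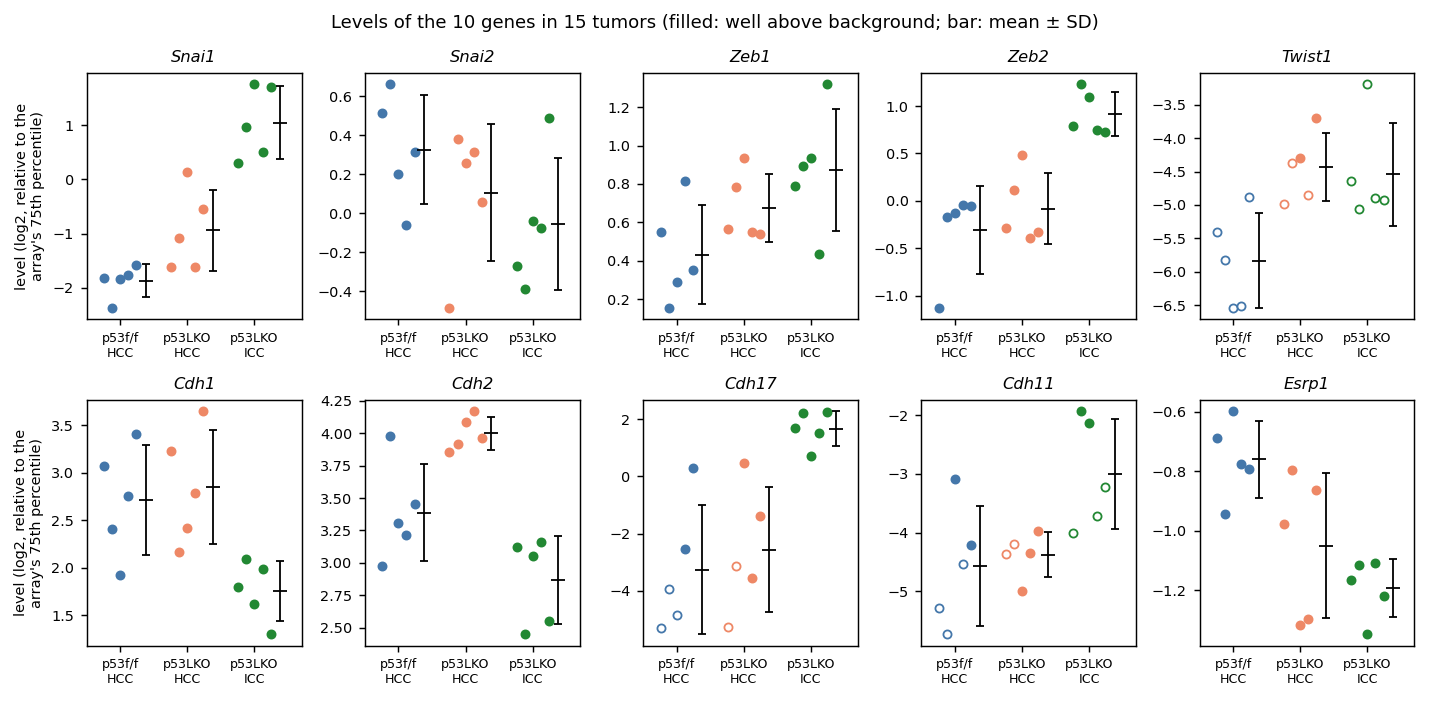
Levels of the 10 genes in each of the 15 tumors (log2 scale, with the 75th percentile of each array at 0), by group, in the order of the tumors as given in the text, each gene by its probe with the higher mean and on its own axis, with filled points well above background, open points not, and mean and SD in black. Snai1, Zeb2 and Cdh17 are higher in all 5 ICC than in all 10 HCC, Cdh1 and Cdh2 are lower in ICC than in p53LKO HCC without overlap, and Twist1 is open in 13 of 15 tumors.

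Among the cadherins Cdh1 and Cdh2 fell in ICC against p53LKO HCC, where Cdh17 and Cdh11 rose, but neither Cdh1 nor Cdh2 was called against p53f/f HCC. E-cadherin (Cdh1), measured with 10 spots per array, had levels of 3.07, 2.41, 1.92, 2.76 and 3.41 in p53f/f HCC. In p53LKO HCC they were 3.23, 2.17, 2.42, 2.79 and 3.66. In ICC they were 1.79, 2.09, 1.62, 1.98 and 1.30, below all p53LKO HCC but above 1 p53f/f HCC in 2 tumors.

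Cdh1 fell in ICC against p53LKO HCC by -1.10 ± 0.29 (SE, 2.14-fold lower, adjusted p = 0.0105). The call is close to its limits. It was lost with the row as a block (-0.94, adjusted p = 0.095), with the mouse as a block (-0.95, adjusted p = 0.037 but under 2-fold), and without the HCC of mouse 3975 (-0.90) or the ICC of mouse 5283 (-0.98). Scaling each array to its bright probes alone (the 75th percentile among those over background on every array), which moves the median of all genes from -0.19 to 0.18, gave -0.73 (adjusted p = 0.076). Against p53f/f HCC the difference was -0.96 (adjusted p = 0.024), under 2-fold, and between the HCC groups it was 0.14 (95% interval -0.61 to 0.89).

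N-cadherin (Cdh2) had its highest mean in p53LKO HCC. Its brighter probe gave 2.97, 3.98, 3.31, 3.21 and 3.46 in p53f/f HCC and 3.85, 3.92, 4.09, 4.17 and 3.96 in p53LKO HCC. In ICC it gave 3.12, 2.45, 3.05, 3.16 and 2.55. The p53LKO HCC were closely grouped, with an SD of 0.13 (n = 5), and lay above every ICC, but 1 p53f/f HCC, of mouse 3715, lay among them.

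The fall of Cdh2 in ICC against p53LKO HCC was -1.13 ± 0.18 (SE, adjusted p = 0.0009). This probe is annotated to the Cdh2 transcript but placed on chromosome 4, so a near-identical copy could share its signal. The second probe, placed on chromosome 18 with the gene, gave -1.23 ± 0.17 (SE, adjusted p = 0.0004), and both probes separated the 2 groups without overlap. Quantile normalization and the scaling to bright probes left both probes lower but under 2-fold (-0.77 and -0.76 for the brighter, -0.94 and -0.86 for the other). Within the lower row alone the brighter probe gave -1.02 (adjusted p = 0.038), and on slide 1 alone, with 1 ICC array, -0.77. Between genotypes, the brighter probe differed by 0.61 (95% interval 0.18 to 1.04, adjusted p = 0.034) and the other by 0.87 (0.48 to 1.26, adjusted p = 0.0038), with no overlap for the second, and neither reached 2-fold. The brighter probe gave 0.69 (adjusted p = 0.052) with the row as a block, 0.36 (adjusted p = 0.18) with quantile normalization, 0.37 (adjusted p = 0.16) with scaling to bright probes and 1.35 (adjusted p = 0.0031) with spike-in scaling. ICC and p53f/f HCC did not differ by the call (-0.52, adjusted p = 0.10, and -0.36, adjusted p = 0.20).

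LI-cadherin (Cdh17) was far higher in ICC than in most HCC, with a wide spread among the HCC. Its levels in p53f/f HCC were -5.32, -3.95, -4.86, -2.54 and 0.29, of which the last 2, both tumors of mouse 3717, were well above background. In p53LKO HCC they were -5.26, -3.14, 0.47, -3.54 and -1.39, with 3 of 5 well above background. The ICC levels of 1.70, 2.21, 0.71, 1.50 and 2.24 were all well above background and above every HCC.

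Cdh17 rose in ICC against p53LKO HCC by 4.24 ± 0.88 (SE, 18.9-fold, adjusted p = 0.0033). It was called against p53f/f HCC too (adjusted p = 0.0026), where 2 of 5 arrays measured it and no size is given. In that comparison it passed the filter only through the ICC arrays, where it is high. The size rests on HCC levels that partly lie at background, and it moved with the background correction and the slide. After normexp correction the difference against p53LKO HCC was 2.88 and on slide 2 alone it was 3.15, and both were called. Within the lower row alone it was 5.87 (adjusted p = 0.002). Against p53f/f HCC it was 1.38 and not called on slide 2 alone, where the only p53f/f HCC is the second tumor of mouse 3717, an arm of 1 array. The genotype difference of 0.70 had an interval of -1.95 to 3.36, which excludes little. Since Cdh17 is known from intestinal epithelium, 8 intestine markers were set beside it. Cdx2 was well above background on 0 arrays of all 3 groups, and in ICC against p53LKO HCC Muc13 (3.40) and Krt20 (2.61) rose while Tff3 (-4.70) and Vil1 (-2.32) fell. The p53f/f HCC of mouse 3717 with Cdh17 at 0.29 had the highest cholangiocyte marker mean of all HCC, -0.24 against -2.66 to -1.80 in the other p53f/f HCC, whereas the p53LKO HCC with Cdh17 at 0.47, of mouse 3731, had one of -1.96.

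OB-cadherin (Cdh11) was read by 2 dim probes that gave different sizes. The probe on chromosome 8 had signals of -5.52, -5.86, -5.45, -6.35 and -4.86 in p53f/f HCC and of -5.36, -4.30, -5.41, -7.00 and -5.51 in p53LKO HCC. In ICC it had -1.02, -0.48, -0.59, -2.08 and -2.41. It was well above background on 1 p53f/f HCC, 0 p53LKO HCC and 5 ICC arrays, so HCC lay at background and ICC clearly over it.

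By that probe Cdh11 was at least 7.92-fold higher in ICC than in p53LKO HCC (adjusted p = 0.0002), a bound against the lowest signals the software calls well above background, and against p53f/f HCC, with 1 of 5 arrays over background, no size is given. It passed the filter only through the ICC arrays, where it is high, and its fitted difference of 4.20, taken against signals at background, was 1.60 after normexp correction, below that bound. The bound therefore belongs to the main processing alone, as do the like bounds given below for other genes. The 8_random probe, which has the slightly higher mean and so stands for the gene in the counts, was well above background on 2, 3 and 2 arrays of the 3 groups. Its signals overlapped, at -5.74 to -3.08 in p53f/f HCC, -5.00 to -3.98 in p53LKO HCC and -4.00 to -1.92 in ICC. It was called against p53LKO HCC with 1.38 ± 0.40 (SE, adjusted p = 0.018), in 19 of 25 alternative settings, but not with the row as a block or in the lower row alone (1.27 in both, adjusted p = 0.11 and 0.15), with quantile normalization (1.22, adjusted p = 0.054), by the methods' t-test (adjusted p = 0.063), on slide 1 alone (0.27) or after normexp background correction (0.78). Against p53f/f HCC it entered no test.

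**Figure D3:**
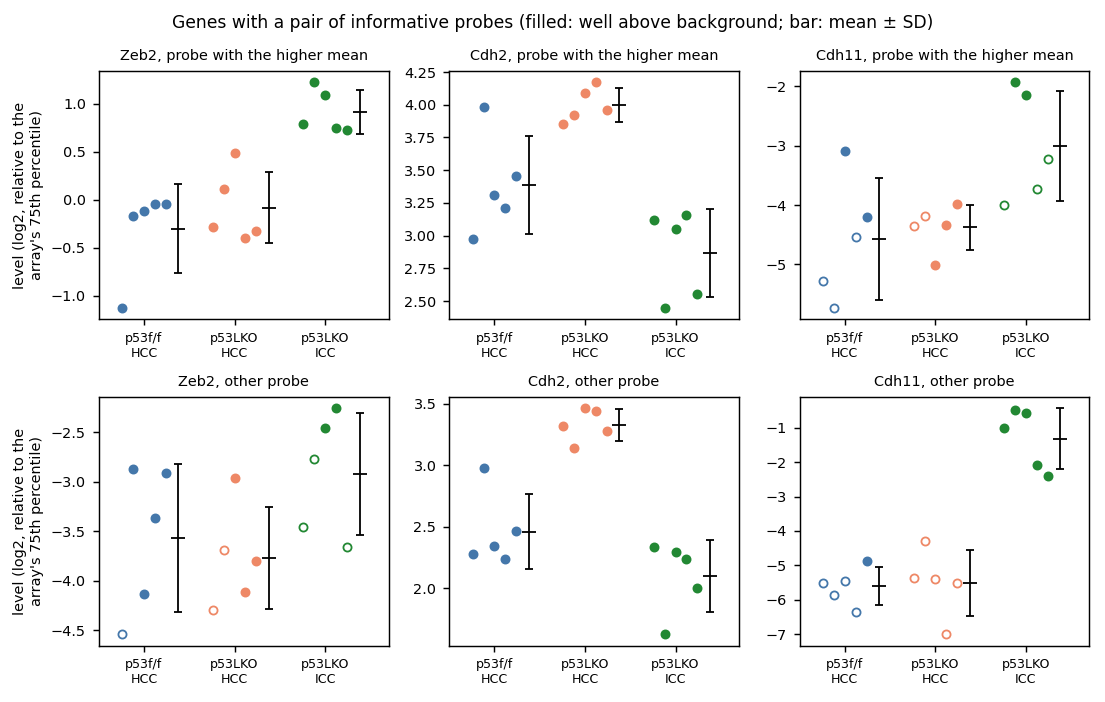
Levels by each of the 2 probes of Zeb2, Cdh2 and Cdh11 in the 15 tumors (log2 scale, with the 75th percentile of each array at 0), with mean and SD in black and open points where a probe was not well above background. Both Cdh2 probes are lower in ICC than in p53LKO HCC, the brighter Zeb2 probe separates ICC from HCC where the other does not, and the Cdh11 probe with the lower mean (chromosome 8) lies at background in 9 of 10 HCC and above it in all 5 ICC.

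Esrp1 varied little. Its levels were -0.94 to -0.60 in p53f/f HCC (median -0.77), -1.32 to -0.80 in p53LKO HCC (median -0.98) and -1.35 to -1.11 in ICC (median -1.17). Only the outer groups were separate, with -0.43 (95% interval -0.74 to -0.12, adjusted p = 0.036) in ICC against p53f/f HCC, under 2-fold. For genotype the interval was -0.65 to 0.07, and for tumor type -0.49 to 0.21. A second Esrp1 probe was well above background on 0 of 15 arrays and gives no level.

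Counted over the genes, 9 of the 10 were tested for genotype and 0 were called by limma, where 14.4% of all genes tested were called (5.42% higher in p53LKO HCC), and 19.6% of all probes (3.64% higher). At an unadjusted p under 0.05 there were 2, Snai1 and Cdh2, and the methods' t-test called 0. For ICC against p53LKO HCC, 5 of 9 tested were called where 27.9% of all genes and 26.4% of all probes were: 3 higher (Snai1, Cdh17 and Cdh11, background 12.3%) and 2 lower (Cdh1 and Cdh2, background 15.5%). Both lower calls were lost with quantile normalization (3 higher, 0 lower, with Zeb2 called and Cdh11 not) and with scaling to bright probes (4 higher, 0 lower). The methods' t-test called 4, without Cdh11. Groups did not overlap for 5 of these 9 (Snai1, Zeb2, Cdh1, Cdh2 and Cdh17), against 30.8% of all genes. For ICC against p53f/f HCC, 3 of 8 tested were called, all higher (Snai1, Zeb2 and Cdh17), where 23.2% of all genes (11.3% higher) and 19.4% of all probes (7.43% higher) were called, and 4 of 8 did not overlap, against 27.9%. Cdh17 entered that comparison only through its ICC arrays, where it is high. The median difference of the tested members was 0.22 for genotype, 0.20 for tumor type and 0.03 for ICC against p53f/f HCC, where that of all genes tested was 0.09, -0.19 and -0.16. These medians moved with the scaling, to -0.02 for genotype with bright probes and 0.96 with spike-in probes, and to 0.57 for tumor type with bright probes. The genotype and tumor type comparisons share the p53LKO HCC arrays, so a high level there, as in Cdh2, enters them with opposite sign, and the comparison of ICC with p53f/f HCC shares arrays with both.

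**Figure D4:**
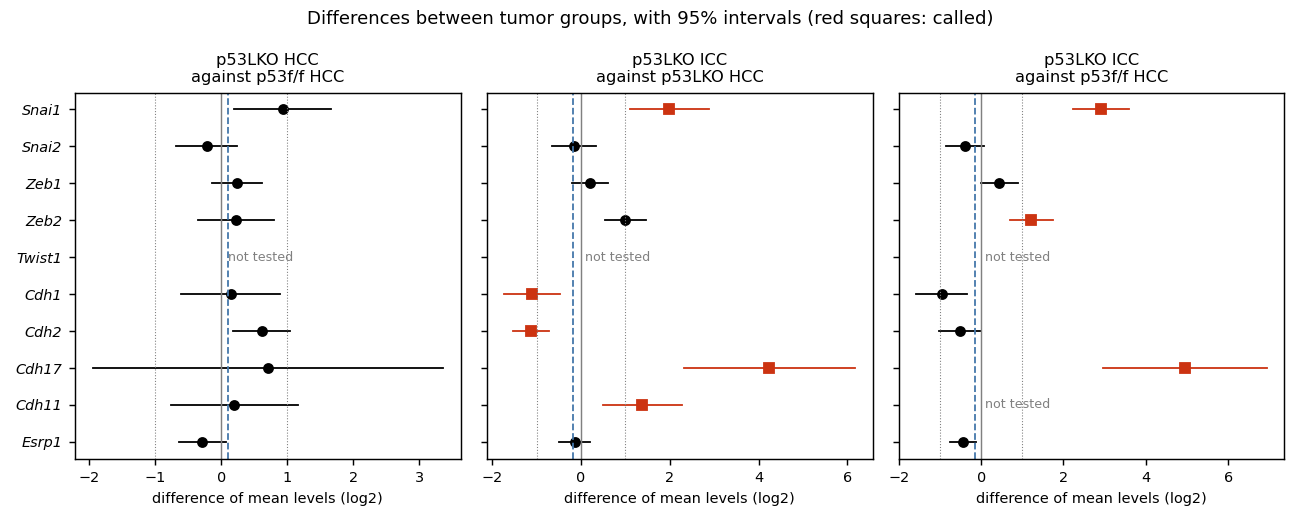
Difference of mean log2 levels for each of the 10 genes in the 3 comparisons, with 95% intervals, red squares where a gene was called, dotted lines at 2-fold and a dashed blue line at the median of all genes tested. In the left panel 0 genes are called, and in the middle panel Snai1, Cdh17 and Cdh11 lie to the right and Cdh1 and Cdh2 to the left.

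The HCC and the ICC of the same animal can be set side by side in 4 mice, whose 8 arrays are part of the group comparison. Where ICC and p53LKO HCC did not overlap (Snai1, the brighter Zeb2 probe, Cdh1, Cdh2 and Cdh17), the direction in each mouse follows from that, so only the sizes add to it. Snai1 was higher in the ICC by 0.17 to 3.36, and Zeb2 by 0.31 to 1.62 with the brighter probe. The dimmer Zeb2 probe, whose groups overlapped, was higher in 3 of 4 mice and lower in mouse 3731, by -0.50. Cdh1 was lower by -1.61 to -0.63, and the brighter Cdh2 probe by -1.73 to -0.80. Cdh17 was measured over background in both tumors of 2 mice, 3731 (1.23) and 3733 (5.75). Snai2 was higher in the ICC of 2 mice and lower in that of 2. The smallest Snai1 and brighter-probe Zeb2 differences were those of mouse 3731, whose HCC had the highest Snai1, Zeb2, Zeb1 and Cdh17 levels of the p53LKO HCC. That HCC also had the highest stellate cell and fibroblast marker mean of all HCC, 1.85, and the lowest hepatocyte marker mean, 6.45. Its mean of 6 endothelium markers, 1.02, was the highest of the p53LKO HCC, and the part of any of these cell types was not tested.

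Other genes of the pathway are given beside these members, against the 27.9% of all genes that were called for tumor type (12.3% higher and 15.5% lower). Of 10 further EMT-promoting transcription factors, 5 were tested for tumor type and 2 rose in ICC, Prrx2 (3.56 ± 0.82, SE, adjusted p = 0.006) and Foxc2 (2.81 ± 0.49, SE, adjusted p = 0.001), both developmental mesenchyme factors. The other 3 had differences of 0.26 to 0.92, and the list median was 0.92. With quantile normalization 3 of the 5 were called higher, and with scaling to bright probes 4. Of 14 mesenchymal genes all were tested, 8 rose and 0 fell (9 rose with quantile normalization and 10 with bright probes), with a median of 2.01. Those with the largest rise were Tnc (tenascin C, 3.77), Mmp2 (a matrix metalloproteinase, 2.91), Col3a1 (2.78) and Col1a2 (2.74), while the 6 others lay between -0.70 and 1.59. These are also genes of fibroblasts, and Col1a1 stands on both this list and that of the fibroblast markers. Of those 8 markers 4 rose and 4 did not, as given above, and the part of fibroblasts was not tested.

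The epithelial genes went both ways. Of 18 tested, 5 rose and 4 fell in ICC against p53LKO HCC, with a median of -0.25 whose sign turned with the scaling. With scaling to bright probes 7 were called higher and 3 lower, and with quantile normalization 5 higher and 3 lower. Epcam, an adhesion molecule of bile duct cells, was well above background on 0 p53LKO HCC and 5 ICC arrays. It entered the test only through ICC, where it is high, and was at least 94.0-fold higher by the bound described for Cdh11. Krt19 rose by 4.67 and Spint1, a protease inhibitor, by 3.69. The junction genes Cldn7 (-2.52), Cldn3 (-1.55) and Ocln (-1.52) fell, in the direction of Cdh1. Of 9 tested factors of the epithelial state, 3 rose, Klf5 (5.18), Klf4 (1.41) and Grhl2, which was well above background on 4 ICC and 0 p53LKO HCC arrays (at least 3.49-fold), and 2 fell, Esrp2 (-2.27), the paralog of Esrp1, and Elf3 (-1.23). Grhl2 entered the test only through ICC, where it is high. With scaling to bright probes 3 of these factors were called higher and 1 lower.

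Other cadherins and their partners showed single large changes. Of 19 further cadherins 10 were tested, and Cdh9 (2.22), Cdh3 (P-cadherin, 2.12) and Cdh6 (K-cadherin, 1.28) rose in ICC, while 0 fell. With quantile normalization 3 cadherins were called higher and 2 lower, and with normexp correction 2 higher and 0 lower. Among 10 tested catenins and partners, which link cadherins to actin, Ctnna2, the neural alpha-catenin, was well above background on 0 p53LKO HCC and 5 ICC arrays. By the bound described for Cdh11 it was at least 35.4-fold higher in ICC, and Ctnnd2 at least 3.91-fold. Both entered the test only through ICC, where they are high. Pkp4 fell (-1.18), and the other 7 lay between -0.30 and 0.70. With scaling to bright probes 3 catenins and partners were called higher and 0 lower, so the fall of Pkp4 was not called.

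For genotype, where 14.4% of all genes were called, the lists are given in the same order. Of 4 tested EMT-promoting transcription factors 0 rose and 1 fell. In p53LKO HCC against p53f/f HCC, 3 of 13 tested mesenchymal genes rose, Mmp2 (2.74), Itga5 (1.29) and Sparc (1.04), and 0 fell. Of the epithelial genes 1 of 16 rose, Lamb3 (1.90). Elf3 rose (1.98), of the cadherins Cdh6 fell (-1.11), and Grhl2 was at least 3.40-fold lower. Ctnna2 and Ctnnd2 were lower by at least 1.77- and 2.26-fold, and each was well above background on 0 p53LKO HCC arrays. Like Grhl2, both entered the test only through p53f/f HCC, where they are higher. Of the 8 stellate cell and fibroblast markers, Lum (1.69) and Pdgfra (1.13) rose as well and the other 6 lay between -0.84 and 1.37, and their part was not tested. These genotype counts moved with the scaling or background correction. The 2 lower catenins and the 1 lower EMT factor were not called with normexp correction or quantile normalization, and with spike-in scaling 5 catenins were called, all higher. Over the 5 settings the mesenchymal genes called ran from 2 to 8, all higher, the epithelial genes from 0 to 4, all higher, and the stellate cell and fibroblast markers from 0 (bright probes) to 5 (spike-in probes). Of the cadherins, 1 was called higher and 0 lower with quantile normalization.

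**Figure D5:**
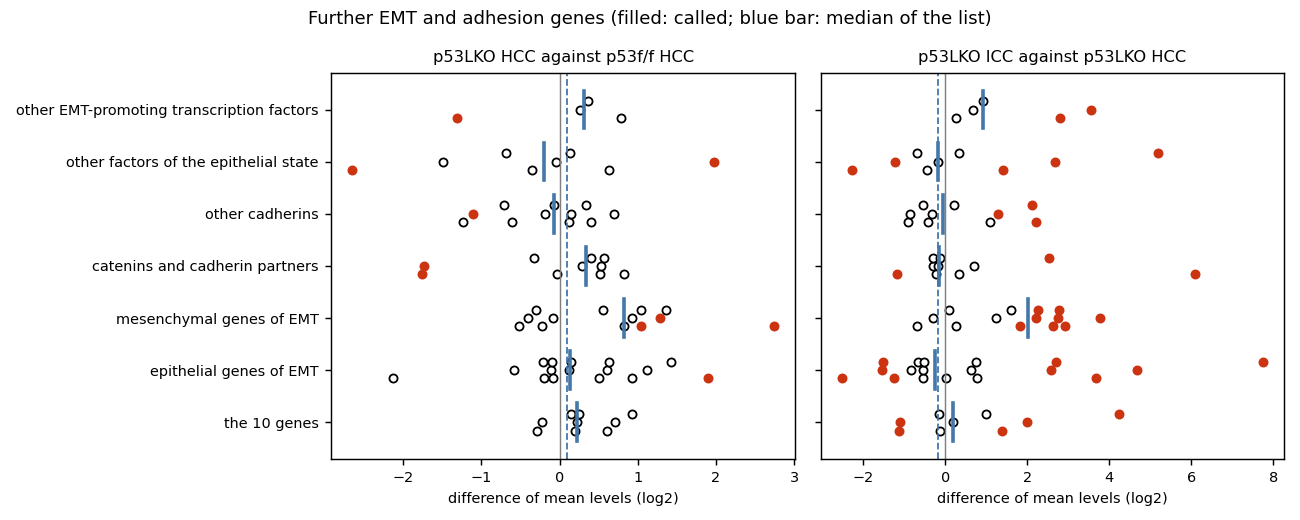
Difference of mean log2 levels of further EMT and adhesion genes, 1 point per tested gene, for genotype (left) and tumor type (right), with the 10 genes described here in the bottom row, called genes in filled red, list medians as blue bars, the median of all genes as a dashed line, and genes at background in 1 group at their fitted value although only a bound holds for them. In the right panel the mesenchymal genes lie mostly to the right, with a median of 2.01, and the epithelial genes on both sides.

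The genes whose levels over the 15 arrays were most like those of 7 of the 10 members were found by the root mean square (RMS) difference of levels centred on their mean, among 13129 genes measured on at least 12 arrays. Cdh17, Cdh11 and Twist1 were measured on fewer and have none. This likeness is a description over arrays that share tumor groups and rows. For Snai1 they were Tuba1a (0.35), Csrp1 (0.36) and Vim (0.36), where the median over all genes was 1.45. For Zeb2 they were Wipf1 (0.11), Prkcb (0.18) and Plekho1 (0.18), with a median of 0.83. Cdh1 came closest to Arcn1 (0.27), Acr (0.34) and Gstt1 (0.35), with a median of 0.81, and Cdh2 to Ormdl3 (0.19), Prkag2 (0.21) and Nedd4l (0.23), with a median of 0.67. For Zeb1 these were Hnrnpr, Eif3f and Mesdc2 (0.13 to 0.15), for Snai2 Trmu, Tmem11 and Dlst (0.19 to 0.20) and for Esrp1 Klhdc7b, Olfr96 and 1810073O08Rik (all 0.13), genes that, like these 3 members, varied little.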

How the data were processed

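Total RNA of 15 whole tumors was hybridised with 1 dye. The authors extracted intensity values (processed signal, background-subtracted) with Agilent Feature Extraction 10.7.3.1 and deposited them, with a table of log2 values that the authors had centred on the HCC arrays or on the p53LKO arrays, used here only for the genotype comparison. In R 4.3.3 and limma 3.58.1, the log2 intensities of all spots of 1 probe were averaged, the array's 75th percentile was subtracted, and each pair of groups was fitted alone (5 arrays against 5). Single genes have an exact 2-sided permutation test (252 splits). For a gene with several probes the one with the highest mean level was taken. Named are the 10 genes with all their probes, Trp53, up to 4 called genes per list and comparison with the largest difference in each direction, cell type markers, and the 3 most similar genes of the 7 members measured on at least 12 arrays. Members and lists were chosen with earlier results of these data known. The lists came from general knowledge, and some of their genes are not reported here.

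Simulated data with 200 changed probes gave 73.0%, 66.0% and 68.5% recovered in the 3 fits (36086, 32666 and 35702 probes), with 0 in the wrong direction and 7, 4 and 8 false calls. Arrays have no read depth, and their number and the signal over background set the precision. HCC and ICC of 4 mice are paired by the mouse number of the labels. Their deviations from the group means correlated by -0.182 to 0.126, against -0.240 to 0.290 for other pairs. That tumors are separate samples rests on the labels, and the 2 tumors of mouse 3717 share an animal. The alternatives were other background correction, scaling, filters, blocks, tests and each array left out, and a second probe of Zeb2, Cdh2 and Cdh11 was added to them after seeing the data. Figures were drawn with matplotlib 3.10.9.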

Additional observations from a re-analysis of the deposited data

Results flagged for a closer look

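Of 30 sets of 5 tumors (10 genes in 3 groups), 2 held a tumor far from the others of its group, where chance gives about 1 in 20. Zeb2 in the p53f/f HCC of mouse 3681 was at -1.13, while the other 4 tumors lay between -0.17 and -0.05, all well above background. Twist1 in the ICC of mouse 3976 was at -3.19, while the other 4 lay between -5.07 and -4.63, and its probe was well above background on 0 of the 5 ICC arrays.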

How the results depend on the processing

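Of the called genes, 0 changed sign under an alternative. For genotype, where 0 of the 10 genes were called, the count was 1 with quantile normalization, without the filter on dim probes, with the row as a block, in the upper row alone or with no limit on the fold change, 2 with scaling to the spike-in probes, and 0 to 1 when each array was left out. For tumor type the 5 called became 3 with quantile normalization, with probes well above background on every array, with the row as a block or in the lower row alone, 1 on slide 1 alone, and 4 to 6 with each array left out. With the mouse as replicate block 4 were called, since Cdh1 (-0.95) fell under 2-fold, and that block changed no other call of the 10 genes, although the adjusted p of Zeb2, not called before either, rose to 0.052. For ICC against p53f/f HCC the 3 called became 5 without the filter or without the fold limit, 0 on slide 1 or slide 2 alone, and 3 to 4 with each array left out, while the row could not be a block there. Over all probes, the 7086 called for genotype became 2892 (normexp), 12124 (spike-in), 1848 (every array above background), 3511 and 508 (slide 1 and slide 2 alone), 11865 (no fold limit) and 6089 to 7792 (each array left out). The 8615 for tumor type became 5614 (normexp), 4331 (every array), 1182 (slide 1), 14764 (no fold limit), 7257 with the mouse as replicate block, and 7427 to 9414. The 6937 for ICC against p53f/f HCC became 3750 (normexp), 19132 (no filter), 3753 (every array), 3700 (slide as a block), 284 and 264 (slide 1 and slide 2), 12146 (no fold limit) and 6079 to 7516. Fits on 1 slide or 1 row have fewer arrays, and those of tumor type on slide 1, of genotype on slide 2 and of ICC against p53f/f HCC on either slide have an arm of 1 array, assumed to vary like the other arm, and the cause of the other shifts was not tested. Scaling moved the direction of all probes: of those called for genotype 18.5% were higher, against 32.2% with normexp, 29.3% with quantile normalization, 7.35% with bright probes and 80.9% with spike-in probes, which moved the median of all genes from 0.09 to 0.83. For tumor type 49.0% were higher, against 73.5% with bright probes, and for ICC against p53f/f HCC 38.2%, against 48.6% with bright and 88.7% with spike-in probes.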
